A study of Mus musculus with 2 samples.

Results

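The 10 genes described here are the paralogues of the miR-17-92 polycistron in the mouse and 1 related gene elsewhere. They were picked by name, as the rows of the count tables whose identifier carries the symbol Mir106b, Mir93 or Mir25 (the Mir106b cluster), Mir106a, Mir18b, Mir20b, Mir19b-2, Mir92-2 or Mir363 (the Mir106a cluster), or Mir92b. All 10 were found among the 1973 gene rows. Small RNA below 30 nt was sequenced from facial prominence tissue of healthy B6NCrl mouse embryos at 12.5 days, male and female together, in 2 libraries. Replicate 1 came from a pool of 120 embryos and replicate 2 from a pool of 88. There was 1 group with no treatment, so the comparisons are between genes within the tissue and between the 2 libraries.

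MicroRNAs are cut from hairpins, and the arm that is loaded into the silencing complex finds its mRNA targets mainly through its seed, bases 2 to 8. The miR-17-92 polycistron and its paralogues descend from 1 ancestral cluster and carry the same few seeds. Their miRNAs are known for holding down inhibitors of the cell cycle such as p21, pro-apoptotic proteins such as Bim and parts of TGF-beta signalling. Mice that lack the miR-17-92 polycistron have orofacial clefts, whereas mice that lack either paralogous cluster alone are viable.

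The genes fall into 4 seed groups, and the arms each family is known for are printed here so that the shared seed (in capitals) and the bases that differ after it can be seen. The sequences are those of RefSeq on GRCm38.p6, which held an arm for all 10 genes and a hairpin at the same coordinates as the gene record for 10 of 10. The miR-17 family, with the seed AAAGUGC, holds 4 of the genes.
Mir106b, miR-106b-5p: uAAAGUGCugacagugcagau
Mir93, miR-93-5p: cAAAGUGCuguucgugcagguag
Mir106a, miR-106a-5p: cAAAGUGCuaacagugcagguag
Mir20b, miR-20b-5p: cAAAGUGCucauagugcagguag
Mir17 of the polycistron, miR-17-5p: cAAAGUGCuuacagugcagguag
The arms of Mir17 and Mir106a differed by 1 substitution, U10A (the base of Mir17, its position from the 5′ end, the base of Mir106a). Mir17 and Mir93 differed by 4, U10G, A11U, C12U and A13C, all in the middle of the arm.

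The miR-25/92 family, with the seed AUUGCAC, holds another 4.
Mir25, miR-25-3p: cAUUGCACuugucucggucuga
Mir92-2, miR-92a-3p: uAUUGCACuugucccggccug
Mir363, miR-363-3p: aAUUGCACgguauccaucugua
Mir92b, miR-92b-3p: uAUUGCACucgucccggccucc
Mir32, outside the clusters, miR-32-5p: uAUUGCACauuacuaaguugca
Over the first 21 bases the arm of Mir92b differed from miR-92a-3p by 2 substitutions (U10C and G21C, miR-92a-3p first). Over all 22 bases it differed from miR-25-3p by 6 and from miR-363-3p by 12. The last 2 genes are Mir18b of the miR-18 family (seed AAGGUGC) and Mir19b-2 of the miR-19 family (seed GUGCAAA).
Mir18b, miR-18b-5p: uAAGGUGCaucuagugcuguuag
Mir19b-2, miR-19b-3p: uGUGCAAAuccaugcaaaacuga

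The arms of Mir92-2 and Mir19b-2 are the same, base for base, as those of Mir92-1 and Mir19b-1 in the polycistron. Their hairpins are printed because the shared stretch (in capitals) limits which reads can be given to 1 gene.
Mir92-1: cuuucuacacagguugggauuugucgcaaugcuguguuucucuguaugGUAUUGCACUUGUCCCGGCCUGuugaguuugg
Mir92-2: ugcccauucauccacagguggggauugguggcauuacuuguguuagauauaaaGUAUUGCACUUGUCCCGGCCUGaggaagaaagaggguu
Mir19b-1: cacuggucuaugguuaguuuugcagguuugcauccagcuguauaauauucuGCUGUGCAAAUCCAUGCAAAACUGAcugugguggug
Mir19b-2: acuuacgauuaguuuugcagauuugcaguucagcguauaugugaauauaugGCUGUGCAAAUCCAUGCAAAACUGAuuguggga
The stretch was 22 bases for the Mir92 pair and 25 bases for the Mir19b pair, and it held the whole arm in both. A read inside it lies at 2 places, and the tables keep reads with several places apart from the genes (26.0% of all reads in replicate 1 and 27.9% in replicate 2). The levels of Mir92-2 and Mir19b-2 below are therefore those of the remaining reads, and how many were set aside was not measured. The other 8 genes have an arm that no other gene of the RefSeq table carries. How many mismatches the alignment allowed was not stated, so reads of Mir17 could be counted for Mir106a, or the reverse, where 1 base was misread.

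The 3 genes of the Mir106b cluster lie within 498 bases on the minus strand of chromosome 5 (GRCm38), inside Mcm7, which encodes a subunit of the replicative helicase. Mir106b (ENSMUSG00000065514.1) lies at positions 138165737 to 138165818, Mir93 (ENSMUSG00000065527.1) at 138165523 to 138165610 and Mir25 (ENSMUSG00000065394.1) at 138165321 to 138165404. All 3 lie in introns of the 2 protein-coding Mcm7 transcripts that span them, and Mir93 and Mir25 also overlap an exon of 1 retained-intron transcript. The 6 genes of the Mir106a cluster lie within 875 bases on the minus strand of chromosome X, from Mir106a (ENSMUSG00000065456.1, 52742503 to 52742567) through Mir18b (52742331 to 52742413), Mir20b (52742113 to 52742192), Mir19b-2 (52741983 to 52742066) and Mir92-2 (52741838 to 52741928) to Mir363 (52741693 to 52741767). None of the 6 lies inside a longer gene on its strand. Mir106a overlaps the noncoding gene Kis2 by 5 bases. Mir92b (ENSMUSG00000076255.2) lies alone on the minus strand of chromosome 3 at 89227116 to 89227198, between Thbs3 and Muc1, which are on the other strand.

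**Figure D1:**
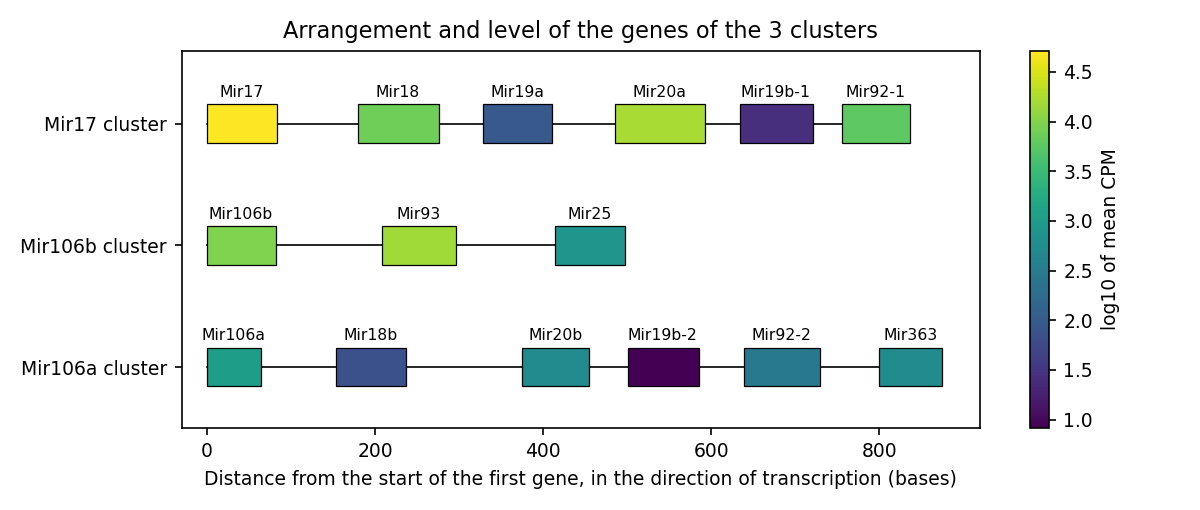
Map of the 3 clusters, drawn to scale from the first gene of each in the direction of transcription (x axis, bases), with the colour giving the log10 of the mean CPM of the 2 libraries. The Mir106b cluster spans 498 bases with 3 genes, the Mir106a cluster 875 bases with 6 genes and the Mir17 cluster 836 bases with 6 genes.

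Own-strand counts summed to 4719337 on genes in replicate 1 and 5929220 in replicate 2, of 11414919 and 12792420 reads. Levels are CPM, the count scaled to that sum. The tables do not separate the 2 arms of a hairpin, so a level belongs to the gene and not to the arm printed above. Genes with at least 10 counts in both libraries, 395 of 1973 (20.0%), are called detected. Of the 10 genes, 10 were detected. No read of either library lay on the strand opposite to them. As a check of the tissue, all 4 mesenchyme and cartilage genes looked at (Mir140, Mir214, Mir199a-2 and Mir455) and all 5 epithelial genes (Mir200b, Mir200c, Mir429, Mir205 and Mir203) were detected, with summed levels of 62956 and 62292 CPM and of 29667 and 34671 CPM in replicates 1 and 2. Mir126a of endothelium stood at 29030 and 27230 CPM and the striated muscle pair Mir206 and Mir133b at 1081 and 1498 CPM in sum. The erythroid pair (Mir451a and Mir144) summed to 201 and 313 CPM, and the liver gene Mir122 stood at 13.8 and 13.5 CPM. The 2 neural genes looked at, Mir124a-1 and Mir9-2, had 0 counts, which allows up to 0.636 and 0.506 CPM of reads placed at them alone, and the arms of both are also made by other genes. Mir9-3, another Mir9 gene, was detected at 16.7 and 11.3 CPM, so the 0 counts do not show that neural miRNAs were absent. In bulk tissue, fewer cells of a type and less RNA per cell cannot be told apart.

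Of the reads counted on the 10 genes, most lay in the Mir106b cluster. Mir93, whose arm is known to target p21, stood at 14988 CPM in replicate 1 and 15191 CPM in replicate 2 (mean 15089.9 ± 144, SD, n = 2), which was rank 17 of the 395 detected genes. Mir106b, which shares that target, stood at 8856 and 10207 CPM (mean 9532 ± 956, rank 24). Mir25, the gene of this cluster with the other seed, known for targeting Bim, stood at 712 and 856 CPM (mean 784 ± 102, rank 110). Mir93 was therefore the highest and Mir25 the lowest gene of its cluster in both libraries, and the values of the 3 genes did not overlap. The fold of Mir93 over Mir106b was 1.69 in replicate 1 and 1.49 in replicate 2, and that of Mir106b over Mir25 was 12.4 and 11.9.

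To judge such differences, the spread between the pools was taken from all 395 detected genes as edgeR's common biological coefficient of variation, 0.190. With it, genes differ beyond the spread when both libraries have the same order and the mean difference passes 2 standard errors, which is about 0.55 on the log2 scale or 1.46-fold. A bias between genes that is the same in both libraries does not enter this spread and was not measured. An exact permutation test of 2 values against 2 cannot go below p = 0.333, so no p is given for levels. Mir93 exceeded Mir106b by 0.67 ± 0.13 (log2 CPM, SD, n = 2, standard error 0.27), which passed that limit. Within 1 library the standard error is 0.39, and the values of 0.76 in replicate 1 and 0.57 in replicate 2 did not pass 2 of these. Mir106b exceeded Mir25 by 3.61 ± 0.04.

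By the reads counted, the X-linked Mir106a cluster stood far lower, with Mir106a, its counterpart of Mir17, on top. Mir92-2 and Mir19b-2 of this cluster lack the reads they share with the polycistron. Their place relative to Mir106a with those reads was not measured. Mir106a stood at 973 and 1102 CPM in replicates 1 and 2 (mean 1037 ± 91.1, rank 98). Mir363, the extra gene at the end of this cluster with the AUUGCAC seed, stood at 504 and 581 CPM (mean 543 ± 54.5, rank 123). Mir20b stood at 536.5 and 536.2 CPM (mean 536.3 ± 0.253, rank 124). Mir106a was above both in each library, while Mir363 and Mir20b changed places between the libraries.

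Mir92-2, counted without the reads it shares with Mir92-1, stood at 356 and 213 CPM in replicates 1 and 2 (mean 285 ± 101, rank 148). Mir18b stood at 70.6 and 71.7 CPM (mean 71.1 ± 0.791, rank 231). Mir19b-2, counted without the reads it shares with Mir19b-1, was the lowest of the 10 genes, with 35 and 54 counts, or 7.42 and 9.11 CPM (mean 8.26 ± 1.20, rank 325). The median level of the 6 genes was 410 CPM, beside 260.4 CPM for the 37 other detected genes of the X chromosome and 122 CPM for all 395 detected genes. As counted, levels in the cluster ran from 8.26 to 1037 CPM among genes that lie within 875 bases. Both this range and the median of 410 CPM include Mir92-2 and Mir19b-2, which lack their shared reads.

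Mir92b, which has been described in neural progenitors, stood at 2195 CPM in replicate 1 and 1009 CPM in replicate 2 (mean 1602 ± 838, rank 84). It was the third highest of the 10 genes by mean level. Its libraries differed more than those of any other of the 10 genes, so its rank among them depends on the library. In replicate 1 it was 2.26-fold above Mir106a, and in replicate 2 its level was 0.916 of that of Mir106a.

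**Figure D2:**
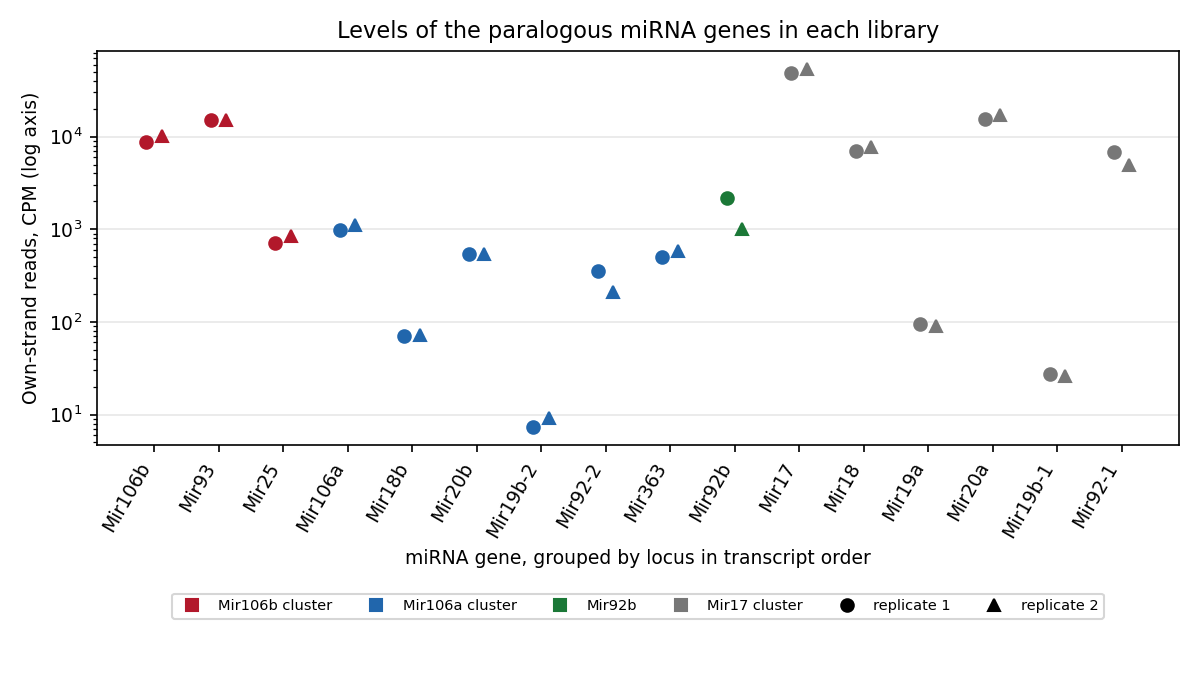
Level of each gene in replicate 1 (circles) and replicate 2 (triangles), in CPM on a log axis, with the genes grouped by locus and coloured by it. Mir93 and Mir106b lie at or above 8856 CPM in both libraries, the Mir106a cluster lies between 7.42 and 1102 CPM, and the 2 points of Mir92b lie farthest apart among the 10 genes.

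From the highest to the lowest mean, the order of the 10 genes was Mir93, Mir106b, Mir92b, Mir106a, Mir25, Mir363, Mir20b, Mir92-2, Mir18b and Mir19b-2. Of the 9 pairs of neighbours in this order, 5 differed beyond the spread. In those of Mir20b with Mir92-2, Mir92-2 with Mir18b and Mir18b with Mir19b-2, a gene was counted without its shared reads. The other 4 pairs did not differ beyond the spread. These were Mir92b and Mir106a (mean log2 difference 0.52 ± 0.92), Mir106a and Mir25 (0.41 ± 0.06), Mir25 and Mir363 (0.53 ± 0.04) and Mir363 and Mir20b (0.01 ± 0.15). The 5 genes from Mir92b to Mir20b thus form a stretch in which no gene stood beyond the spread from the next. The genes next to the leading member among all detected genes were Mir182 above (15378 and 15659 CPM) and Mir140 below (15199 and 14466 CPM), and neither differed from Mir93 beyond the spread.

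Summed by locus, the Mir106b cluster held 2.54% ± 0.120 of gene counts (SD, n = 2), with 2.46% in replicate 1 (exact Clopper-Pearson interval 2.44 to 2.47) and 2.63% in replicate 2 (2.61 to 2.64). The Mir106a cluster held 0.248% ± 0.00459, with 0.245% (0.240 to 0.249) and 0.251% (0.247 to 0.255). Mir92b held 0.219% (0.215 to 0.224) in replicate 1 and 0.101% (0.0984 to 0.103) in replicate 2. All 10 genes together held 2.92% and 2.98%, against 7.84% and 8.42% for the 6 genes of the Mir17 polycistron on chromosome 14. These intervals are at the 95% level and cover counting error only. They do not cover the reads that Mir92-1 shares with Mir92-2 and Mir19b-1 with Mir19b-2. Such reads are missing from the sums of the Mir106a cluster, the 10 genes and the polycistron.

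Set beside their counterparts in the polycistron, Mir93 stood close to Mir20a and the other genes of both clusters were lower. Mir17 stood at 49167 and 54143 CPM in replicates 1 and 2. That was 5.55 and 5.30 times Mir106b and 50.5 and 49.1 times Mir106a. Mir20a, at 15372 and 17206 CPM, did not differ beyond the spread from Mir93, its counterpart in the Mcm7 introns (folds of 1.03 and 1.13, mean log2 difference 0.11 ± 0.10, standard error 0.27). Per length of the gene record that difference was -0.17, so its direction turned. Mir92-1 (6768 and 4912 CPM) exceeded Mir25 by 9.5-fold in replicate 1 and 5.74-fold in replicate 2, which was beyond the spread.

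The remaining counterparts of the X-linked genes were all higher than these in both libraries. Mir20a exceeded Mir20b by 28.7-fold in replicate 1 and 32.1-fold in replicate 2. Mir18 (7002 and 7815 CPM) exceeded Mir18b by 99.2-fold and 109.0-fold. For the genes with an identical arm, Mir92-1 exceeded Mir92-2 by 19.0-fold and 23.1-fold and Mir19b-1 (27.5 and 26.1 CPM) exceeded Mir19b-2 by 3.71-fold and 2.87-fold, as counted without shared reads. These 4 differences were beyond the spread.

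The order of the 2 genes with the AAAGUGC seed within a cluster was not the same in the 3 clusters. In the polycistron the first gene was the higher, with Mir17 above Mir20a by 1.67 ± 0.02 on the log2 CPM scale. In the Mir106a cluster the first gene was also the higher, with Mir106a above Mir20b by 0.95 ± 0.13. In the Mir106b cluster the first gene, Mir106b, was the lower. The difference of Mir93 minus Mir106b exceeded that of Mir20a minus Mir17 by 2.33 ± 0.15 (standard error 0.39) and that of Mir20b minus Mir106a by 1.62 ± 0.004 (standard error 0.39), both beyond the spread. Those of the polycistron and the Mir106a cluster differed by 0.72 ± 0.14, which was not beyond it. Per cluster, Mir93 made up 59.4% ± 2.24 of the counts of the Mir106b cluster and Mir106b 37.5% ± 1.99. Mir106a made up 41.8% ± 2.90 of the counts of its own cluster, Mir363 21.9% ± 1.79 and Mir20b 21.6% ± 0.411. The counts of the Mir106a cluster lack the shared reads of Mir92-2 and Mir19b-2. With any of these added, the shares of Mir106a, Mir363 and Mir20b would be lower.

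By seed family, the Mir106b cluster supplied 26.2% ± 0.502 of one family (SD, n = 2) and the single gene Mir92b a part of another that varied between the libraries. The 7 genes with the seed AAAGUGC, of which Mir6383 had 0 counts, summed to 89893 CPM in replicate 1 and 98385 CPM in replicate 2. Mir106b and Mir93 gave 26.5% of these counts in replicate 1 (exact interval 26.4 to 26.7) and 25.8% in replicate 2 (25.7 to 25.9). Mir106a and Mir20b gave 1.68% (1.64 to 1.72) and 1.66% (1.63 to 1.70), and the polycistron gave the remaining 71.8% and 72.5%.

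The family with the seed AUUGCAC was spread over more loci. Its 7 genes summed to 10696 CPM in replicate 1 and 7803 CPM in replicate 2. Reads of miR-92a-3p set aside for their several places are missing from this sum, so the shares of Mir92b, Mir25 and Mir363 would be lower with them. Mir92b gave 20.5% (exact interval 20.2 to 20.9) in replicate 1 and 12.9% (12.6 to 13.2) in replicate 2. Mir25 gave 6.66% (6.44 to 6.88) and 11.0% (10.7 to 11.3), and Mir92-2 with Mir363 gave 8.04% (7.81 to 8.29) and 10.2% (9.90 to 10.5).

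Mir92-1 gave 63.3% and 63.0% of that family, and the 2 genes outside all these loci, Mir32 and Mir367, gave 1.51% and 2.96%. For the small families, Mir18b gave 0.998% and 0.909% of the counts of the genes with the seed AAGGUGC. Mir19b-2 gave 5.67% and 7.26% of those of the genes with the seed GUGCAAA, a family that summed to 131 and 125 CPM as counted without the reads that Mir19b-1 and Mir19b-2 share. Counts join both arms of a hairpin, so not every read need carry the seed of its family.

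**Figure D3:**
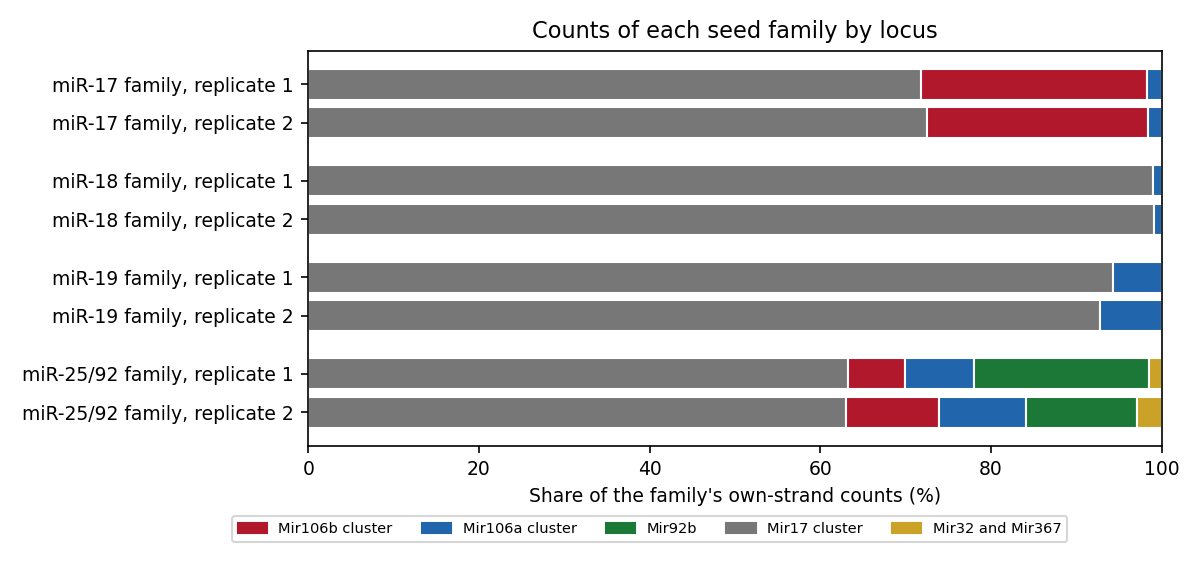
Share of each seed family's own-strand counts by locus (x axis, %), with 1 bar for each library and 1 colour for each locus. The Mir106b cluster takes 26.5% and 25.8% of the miR-17 family, and in the miR-25/92 family the part of Mir92b shrinks from 20.5% in replicate 1 to 12.9% in replicate 2.

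Between the 2 pools of embryos, most of the 10 genes had close levels and Mir92b did not. Ratios of replicate 2 over replicate 1 were taken with TMM library sizes, and each gene was tested with a two-sided exact binomial test, adjusted by the Benjamini-Hochberg method over the 395 detected genes. This test compares the 2 libraries and covers counting error only. Of all detected genes, 51.9% differed beyond it, 27.1% higher and 24.8% lower in replicate 2. Of the 10 genes 6 differed, 4 higher and 2 lower, a share near that of all genes. Within 1.5-fold lay 8 of the 10 genes, as did 86.3% of all detected genes. The median log2 ratio of the 10 genes was 0.10, beside -0.003 for all detected genes.

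Mir92b was the gene with the widest gap among the 10, with a log2 ratio of -1.13 (exact interval -1.17 to -1.08). Only 8 of the 395 detected genes had a lower ratio. It was the 1 gene of the 10 that also differed at least 2-fold, as 4.05% of all detected genes did, 3.04% in the same direction. Mir92-2 followed with -0.75 (-0.85 to -0.64). With the coefficient of variation fixed at 0.2 in edgeR's exact test, which allows for spread between pools, neither passed (edgeR adjusted p = 0.456 for Mir92b and 1.0 for Mir92-2). At an unadjusted p under 0.05 in edgeR's exact test, 1 of the 10 genes (Mir92b, p = 0.00677) and 20 of the 395 would be counted.

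The other genes of the clusters had ratios nearer to 0. Mir25 had a log2 ratio of 0.26 (exact interval 0.20 to 0.32), Mir363 one of 0.20 (0.12 to 0.28), Mir106b one of 0.20 (0.18 to 0.22) and Mir106a one of 0.17 (0.12 to 0.23). These 4 were higher in replicate 2 beyond counting error. Mir93 had a ratio of 0.01 (interval -3.61e-06 to 0.03, exact binomial adjusted p = 0.0921) and was not called, but it was called in 4 of 5 other settings, with ratios from -0.02 to 0.03. For Mir18b (0.02, -0.19 to 0.23), Mir20b (-0.01, -0.08 to 0.07) and Mir19b-2 (0.29, -0.35 to 0.95) a difference was not detectable at this depth.

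**Figure D4:**
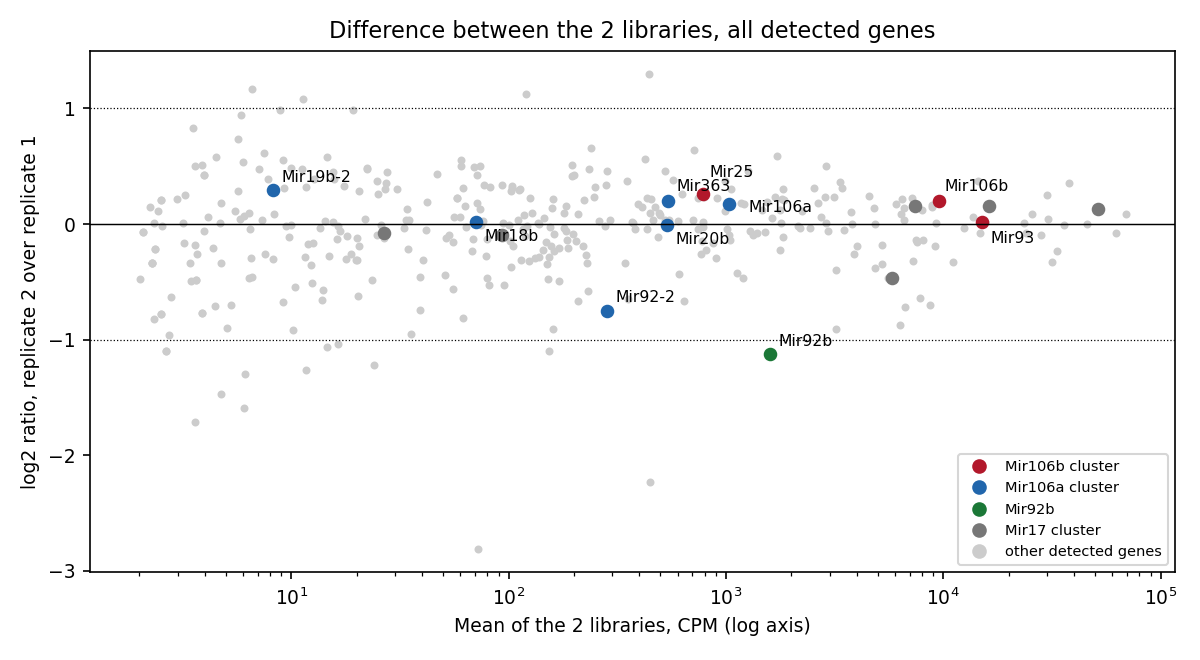
log2 ratio of replicate 2 over replicate 1 (y axis, TMM library sizes) against the mean CPM of the 2 libraries (x axis, log scale) for the 395 detected genes, with dotted lines at 2-fold. Mir92b, at -1.13, lies beyond the lower line, Mir92-2 lies at -0.75, and the other 8 of the 10 genes lie between -0.01 and 0.29.

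Within the AUUGCAC family the ratios of the genes had opposite signs. Within 1.5-fold lay 4 of its 6 detected genes, beside 86.3% of all detected genes. Mir92b, Mir92-2 and the polycistron's Mir92-1 (-0.47, interval -0.49 to -0.44) were lower in replicate 2. Mir25, Mir363 and Mir32 (0.51, interval 0.38 to 0.64) were higher, each beyond counting error. As a result the fold of Mir92b over Mir25 was 3.08 in replicate 1 and 1.18 in replicate 2, a value that does not depend on the library size. The fold of Mir363 over Mir92-2 was 1.42 and 2.73. The 6 detected genes with the AAAGUGC seed all lay within 1.5-fold. Of these, Mir17, Mir20a, Mir106a and Mir106b were higher in replicate 2 beyond counting error, with log2 ratios from 0.13 to 0.20. Mir93 and Mir20b were not. In both families these calls cover counting error only and allow for no spread between pools. A large share of all detected genes, given above, differed beyond counting error as well.

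In the AUUGCAC family the base composition of the arms printed above moved with this difference. After the seed, G and C made up 78.6% of the bases in the arm of Mir92b and 69.2% in that of Mir92-1 and Mir92-2. In the arms of Mir25, Mir363 and Mir32 they made up 50.0%, 42.9% and 28.6%. Over the whole arm, seed included, the shares were 63.6%, 57.1%, 50.0%, 40.9% and 31.8% in the same order. In the miR-17 family, Mir17, Mir106a and Mir20b had the same 46.7% after the seed, with log2 ratios of 0.13, 0.17 and -0.01. Mir93 (53.3%), Mir106b (46.2%) and Mir20a (40.0%) had ratios of 0.01, 0.20 and 0.16. Reads inside the arm that Mir92-1 and Mir92-2 share were set aside for their several places, so the ratios of these genes are those of the remaining reads. Over both arms of a hairpin the groups were not apart, with 63.0% for Mir92b, 55.8% for Mir92-2 and 52.3% for Mir92-1 against 54.5% for Mir25, 40.9% for Mir363 and 30.2% for Mir32. Over the 357 detected genes with mature arms in the RefSeq table, the 78 genes with at least 60% G and C over both arms, Mir92b among them, had a median log2 ratio of -0.20 (quartiles -0.45 and 0.07), and the 113 genes below 45% had one of 0.06 (-0.14 and 0.23). The 134 genes from 45% to 55%, Mir92-1 and Mir25 among them, had a median of 0.006. The 32 genes from 55% to 60%, Mir92-2 among them, had one of -0.06. Over the 357 genes the Spearman correlation of base composition with the ratio was -0.23. This was looked at after the ratios had been seen, and the part of base composition in the result was not tested.

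**Figure D5:**
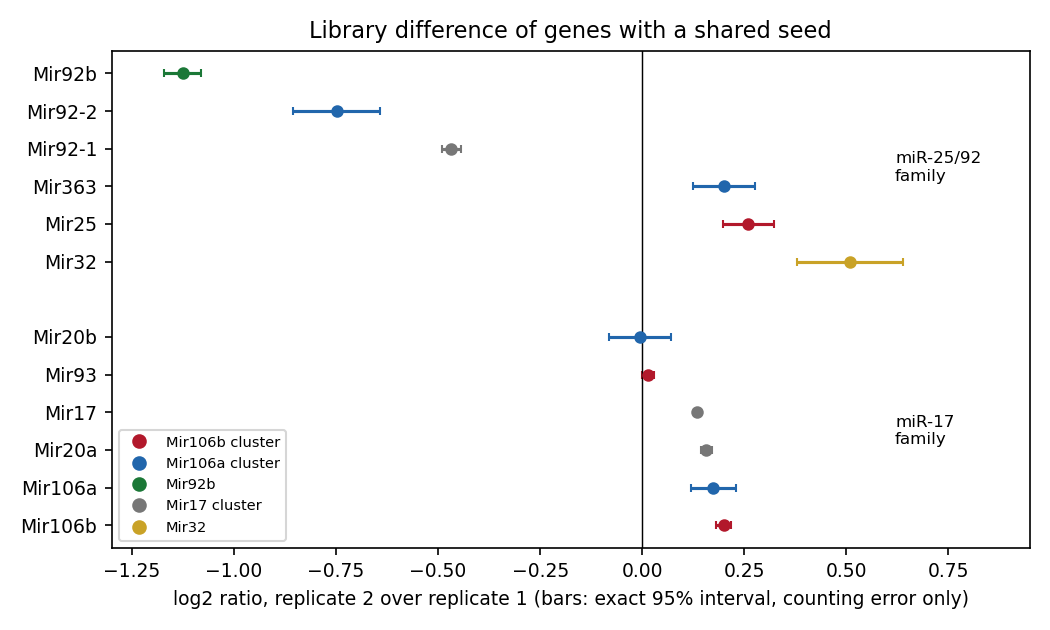
log2 ratio of replicate 2 over replicate 1 (x axis) for the detected genes of the 2 larger seed families, coloured by locus, with exact 95% intervals for counting error as bars. Mir92b, Mir92-2 and Mir92-1 lie at -1.13, -0.75 and -0.47, and Mir363, Mir25 and Mir32 of the same family lie between 0.20 and 0.51.

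Apart from the 3 clusters and Mir92b, few genes carried a seed of these families. A search of all mature arms in the RefSeq table found Mir32, Mir367 and Mir6383 besides Mir92b and the genes of the clusters. Mir32, in an intron of Tmem245, stood at 161 and 230.0 CPM in replicates 1 and 2. Mir367, which is known from pluripotent cells, had 1 and 4 counts, and Mir6383 had 0. The other miRNA genes looked at in introns of a gene of chromosome replication and segregation, Mir15b and Mir16-2 of the condensin gene Smc4, stood at 1408 and 1534 CPM and at 400.5 and 469 CPM, and the arm of Mir16-2 is shared with Mir16-1. By the reads counted, both lay below Mir93 and Mir106b of the Mcm7 introns in each library. Mir15b lay above and Mir16-2 below Mir25 of the same introns. Reads inside the arm that Mir16-2 shares were set aside for their several places. The level of Mir16-2 is therefore that of the remaining reads, and its place with the others was not measured.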

How the data were processed

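The authors deposited, for each library, raw read counts per miRNA gene on both strands, on the gene's own strand and on the other strand. The alignment was to mm10 with GENCODE M4, per the file headers of the accompanying description files. Which aligner and counter were used, and how reads were trimmed, is not given in the sources used here. Own-strand counts were used, as CPM of their sum over the 1973 gene rows; entries for unmapped, multiply mapped and outside-gene reads (25.7% and 19.4%, 26.0% and 27.9%, 5.57% and 4.72% of reads) stayed out of that sum. Symbols and positions came from GENCODE M21 on GRCm38, which matched 1894 identifiers. Labels call the libraries biological replicates 1 and 2. Exact binomial p-values cover counting error only, and those of edgeR's exact test rest on a coefficient of variation fixed at 0.2. TMM factors, the common coefficient of variation and the exact test came from edgeR 4.0.16 and size factors from DESeq2 1.42.0 (R 4.3.3); binomial tests used scipy 1.17.1. edgeR's quasi-likelihood test was not run, since 1 library against 1 leaves no residual degrees of freedom. Both calculations were tested on simulated data. Genes named are the 10 genes, the 6 of the polycistron, those sharing a seed, Mir15b and Mir16-2, the genes next to the leading gene in rank, and the tissue markers with Mir9-3. For Mir32 the 5p arm was used, which carries the seed, in place of the 3p arm listed at first. The genes and lists were chosen with earlier results of these data known. Alternatives changed the strand column, denominator, normalization, count minimum, pseudocount, length scaling, test and libraries.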

Additional observations from a re-analysis of the deposited data

How the results depend on the processing

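All 10 genes were detected with a minimum of 1 count, with both strands and in either library, and 9 with a minimum of 100, where Mir19b-2 was not. Shares follow the denominator, and those of the Mir106a cluster and the 10 genes lack the shared reads of Mir92-2 and Mir19b-2. With all reads in the denominator the Mir106b cluster held 1.12%, the Mir106a cluster 0.109% and the 10 genes together 1.29%. Without the 10 highest genes in the denominator they held 4.44%, 0.434% and 5.16%, and with both strands counted the Mir106a cluster held 0.240% and the 10 genes 2.85%. The 18 differences between genes kept their side of the limit with both strands, per length of the gene record and with a pseudocount of 1 CPM. They also kept their direction, except that Mir20a minus Mir93, which was not beyond the spread, was -0.17 per length. With 1 library left out the error grows, and 3 differences then fell short of the limit, with the same sign. That of Mir93 over Mir106b was 0.57 to 0.76, that of Mir92b over Mir25 was 0.24 without replicate 1 (1.62 without replicate 2), and that of Mir363 over Mir92-2 was 0.50 without replicate 2 (1.45 without replicate 1). The 6 of 10 genes that differed between the libraries became 1 with a 2-fold limit as well (16 of 395 genes) and 0 in edgeR's exact test with a coefficient of variation of 0.2 (2 of 395), where 1 of the 10 had an unadjusted p under 0.05. Mir92b stayed between -1.16 and -1.11 on the log2 scale under 5 other minimums, scalings and strand settings, and Mir93, which was not called, was called in 4 of those 5, with ratios from -0.02 to 0.03. No paired analysis was possible because there is 1 group. Mir19b-2 had the fewest counts of the 10 genes, 35 and 54, as counted without the reads it shares with Mir19b-1.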

Other observations

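The Mir302 genes and the Mir290 to Mir295 cluster are known from embryonic stem cells, and arms of several of them, such as miR-302d-3p, carry the stretch AAGUGC that lies inside the AAAGUGC seed. The 4 Mir302 genes stood at 517 and 532 CPM (Mir302a), 386 and 376 CPM (Mir302b), 53.2 and 62.6 CPM (Mir302c) and 434 and 465 CPM (Mir302d) in replicates 1 and 2. Of the 7 genes of the Mir290 to Mir295 cluster, Mir292, Mir293 and Mir294 were detected, at 9.28, 20.5 and 20.3 CPM on average, and the other 4 had at most 18 counts in either library. The arm of miR-302d-3p shows the shift of the stretch by 1 base towards the 5′ end.
miR-302d-3p: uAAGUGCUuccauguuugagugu
miR-106a-5p: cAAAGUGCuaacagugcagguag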
